A study of Mus musculus with 8 samples.

Results

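The ubiquitin-specific proteases, the largest family of enzymes that remove ubiquitin from proteins, were examined apart from Usp39 itself. Members were the genes of the expression table whose symbol is Usp followed by a number and at most 1 letter, without Usp39, which gave 49 of 55385 gene identifiers. The table came from RNA-seq of whole livers of 8 male mice aged 5 weeks and fasted for 16 h, with 1 library per mouse. Of these, 4 were Usp39-HKO mice, in which a floxed Usp39 allele (Usp39 fl/fl, with loxP sites around exon 2) is cut by Cre under the albumin promoter, which is active in hepatocytes. The other 4 were control littermates, labelled WT and fasted alike, and the floxed and Cre lines came on a C57BL/6J background. Total counts ran from 8589636 to 10418450 per mouse, and the mice are named here by group and replicate number, which carries no pairing.

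Ubiquitin is a small protein that is attached to lysines of other proteins, alone or in chains, and marks them for the proteasome, for sorting through endosomes or for changes in signalling. Ubiquitin-specific proteases are cysteine proteases that cut it off again, and members differ in their targets and in where they sit: on chromatin, at the proteasome, on endosomes, on the endoplasmic reticulum (ER) or on mitochondria. Usp39 has the fold of the family but lacks the catalytic residues and works as a splicing factor in the spliceosome.

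Usp39 was read first as a check of the labels. Usp39 lies on mm10 at chr6:72318678-72345184, and its deposited level, in FPKM (fragments per kilobase of exon, scaled to the counted reads of the mouse), was 9.35, 10.4, 8.76 and 9.78 in control replicates 1 to 4 and 8.37, 8.63, 8.70 and 8.07 in Usp39-HKO replicates 1 to 4. Every Usp39-HKO mouse was below every control mouse, but the gap between the groups was narrow. On the scale used for testing, CPM (counts scaled to the library size) with factors from the trimmed mean of M-values (TMM), Usp39 fell in Usp39-HKO livers (log2 fold change -0.41 ± 0.11 SE, edgeR adjusted p = 0.0212; two-sided exact permutation p of FPKM = 0.0286, the smallest that 4 against 4 mice can give). The count covers all exons of the gene, and the second exon takes 70 of its 2445 exon bases, so it is a weak check of a deletion of that exon; counts per exon were not used here. The call was lost without control replicate 4 or Usp39-HKO replicate 4 (edgeR adjusted p = 0.0547 and 0.0615). Without TMM, which here and below means edgeR with library size alone, the fold was -0.18 and not called. Over all alternatives the adjusted p ran from 0.0148 to 0.247.

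A gene entered the test with an FPKM of 0.5 or more in 4 or more mice, and 40 of the 49 members passed. The 40 spanned from 20.2 FPKM for Usp8 to 0.591 FPKM for Usp11 as means over the 8 mice, with a median of 5.26 against 4.42 over all 14340 genes tested. At an edgeR adjusted p under 0.05, 6 of the 40 were called, where the background was 22.5% of all genes tested; 11 had an unadjusted p under 0.05, where the background was 35.3%. Usp11, Usp12 and Usp20 were higher in Usp39-HKO livers, 3 members where the background was 10.9% of genes. Usp11 reached 0.5 FPKM in no control mouse, so it passed only through the group in which it is high and had to differ, which leaves 2 higher members, Usp12 and Usp20, to set beside that share. Usp9x, Usp24 and Usp47 were lower, 3 members where the background was 11.6%. These calls rested on scaling beyond library size: with library size alone edgeR called 0 members lower. Of all 14340 genes that fit called 696 lower, against 1664 with TMM. In each of the 6, 4 of 4 Usp39-HKO mice lay on the same side of the control mean, which for Usp11 the filter decided. The 6 were called from these same values, so the side of the mice adds no support of its own. The count also rested on single mice: of 6 called members, 1 was left without control replicate 1, 1 without control replicate 3, 2 without control replicate 4, 3 without Usp39-HKO replicate 3 and 2 without Usp39-HKO replicate 4. Calls over all 14340 genes fell too, from 3225 to 2259, 1931, 2043, 2482 and 2094 in the same fits. The higher members numbered 1 without control replicate 1 and 0 without control replicate 3, control replicate 4 or Usp39-HKO replicate 4. Over all genes the higher calls were 1124, 982, 1020 and 1031 in these fits, against 1561 with all mice. The lower members numbered 0 without control replicate 1 and 1 without control replicate 3 or Usp39-HKO replicate 3. Over all genes the lower calls were 1135, 949 and 1204 in these fits, against 1664 with all mice.

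**Figure D1:**
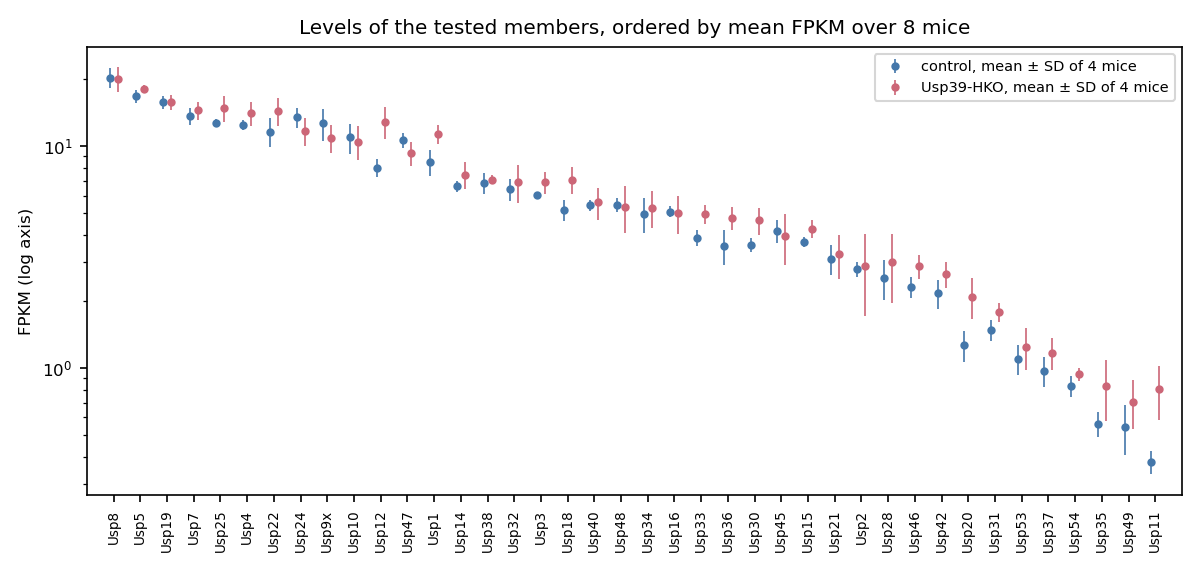
Levels of the 40 tested members in FPKM on a log axis, ordered from the highest mean to the lowest; points are group means of 4 mice and bars are SD, in blue for control and in red for Usp39-HKO livers. Usp8 is at the left and Usp11, the lowest, at the right; FPKM is not TMM-scaled.

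The changes of the family were small. The median log2 fold change of the 40 members was -0.06, against -0.00 over all genes tested, and the median size of the change regardless of sign was 0.17, against 0.28. The cutoff of the study combines an unadjusted p below 0.05 with a change of more than 0.5 on the log2 scale in either direction. The study put it on DESeq2 results, while here it was put on the edgeR fit with TMM. The 1 member to pass it was Usp11, whose difference was fixed by the filter, so nothing is read from this count against the background of 21.7% of genes. The 34 members not called lay between -0.32 and 0.32 on the log2 scale. In 15 members the fold change was above 0 and in 25 below 0 with TMM, and without it 32 were above and 8 below, with a median of 0.18. The median over all genes moved alike, from -0.00 with TMM to 0.24 with library size alone, so the members stood slightly below the median gene under both.

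**Figure D2:**
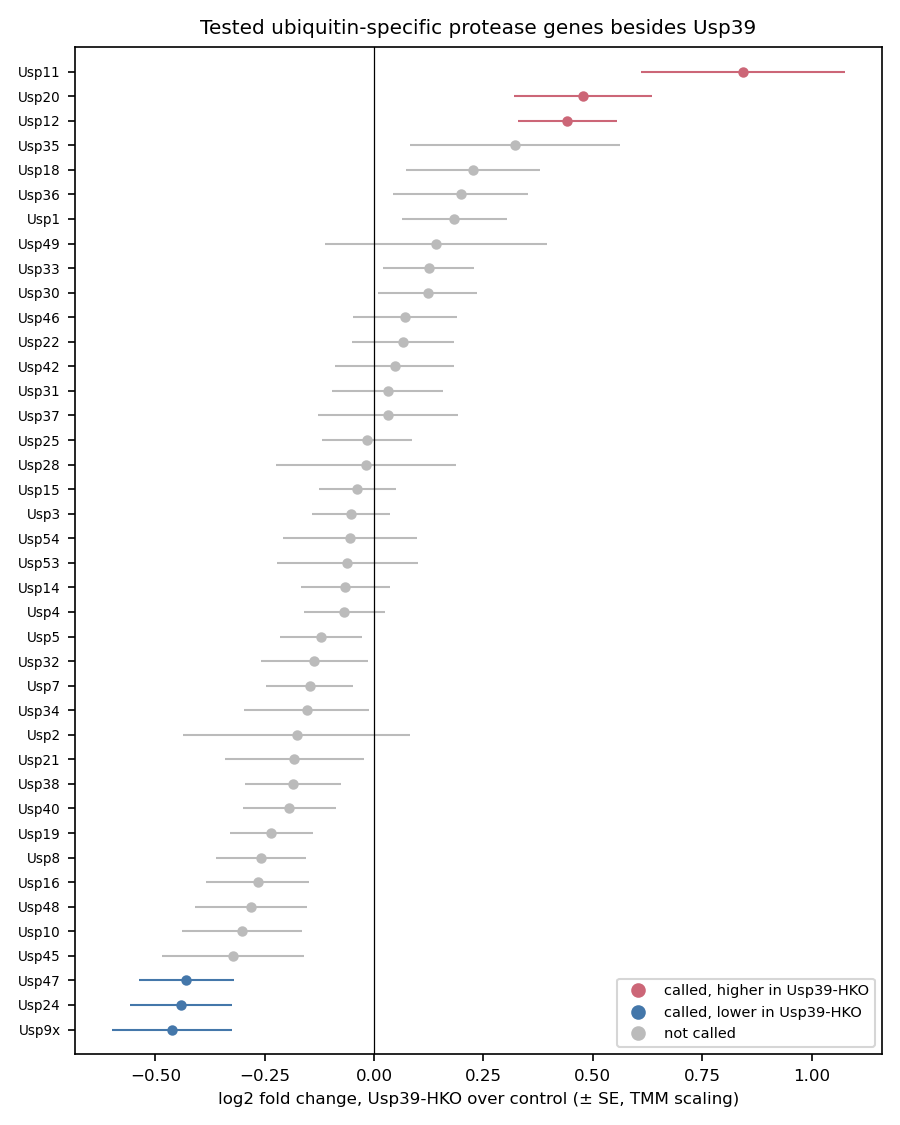
Change between the genotypes (log2, Usp39-HKO over control) with its SE for each of the 40 tested members, with TMM scaling; red points were called higher, blue points lower and grey points were not called (adjusted p under 0.05). Usp11 is farthest to the right at 0.84; without TMM the blue points were not called and 32 of the 40 lie above 0.

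Among the members called higher, Usp12, which is activated by the WD-repeat protein Wdr48 and is the close relative of Usp46, had the highest FPKM. In TMM-scaled CPM, Usp12 stood at 38.0, 45.9, 40.4 and 37.8 in control replicates 1 to 4 and at 54.7, 47.3, 55.6 and 62.6 in Usp39-HKO replicates 1 to 4. All 4 Usp39-HKO mice were above all 4 control mice, with replicate 4 the highest and replicate 2 nearest to the controls. Usp12 (chr5:146734809-146795006 on mm10) rose (log2 fold change 0.44 ± 0.11 SE, edgeR adjusted p = 0.0172), and its mean level was 8.02 ± 0.739 FPKM in control and 12.9 ± 2.14 FPKM in Usp39-HKO livers (SD, n = 4 each). The exact permutation p for FPKM was 0.0286. The call was lost without control replicate 1, control replicate 3, control replicate 4 or Usp39-HKO replicate 4 (adjusted p = 0.0527, 0.0507, 0.0589 and 0.0553, within a range of 0.00359 to 0.0589 over all alternatives).

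Usp11, a nuclear protease that acts in DNA repair and is a relative of Usp4 and Usp15, had the largest fold change of the 40. Usp11 measured 2.28, 1.76, 1.79 and 1.95 TMM-scaled CPM in control replicates 1 to 4, against 3.06, 3.18, 3.17 and 4.56 in Usp39-HKO replicates 1 to 4. The groups did not overlap, and Usp39-HKO replicate 4 stood well above the other mice of its group. Usp11 (chrX:20703906-20720539) stood at a low level, 0.377 ± 0.0449 FPKM in control and 0.806 ± 0.223 FPKM in Usp39-HKO livers (SD, n = 4 each), and its difference (log2 fold change 0.84 ± 0.23 SE, edgeR adjusted p = 0.0241) and the gap between the groups are given as measured, with nothing read from the p, as the filter let it in only through its Usp39-HKO values. Without control replicate 3, control replicate 4 or Usp39-HKO replicate 4 it was not called (adjusted p = 0.0697, 0.0624 and 0.0782), nor without the filter (0.0580), and the range over all alternatives was 0.00983 to 0.0782.

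Usp20, which with its relative Usp33 acts on receptors and other membrane proteins, was the weakest call. In TMM-scaled CPM, Usp20 stood at 13.4, 14.6, 12.3 and 9.74 in control replicates 1 to 4 and at 15.01, 18.6, 15.6 and 20.4 in Usp39-HKO replicates 1 to 4. The lowest Usp39-HKO mouse was only slightly above the highest control mouse. Usp20 (chr2:30982279-31023586) rose (log2 fold change 0.48 ± 0.16 SE, edgeR adjusted p = 0.0488), at 1.27 ± 0.202 FPKM in control and 2.10 ± 0.442 FPKM in Usp39-HKO livers (SD, n = 4 each). This call was lost without control replicate 1, control replicate 3, control replicate 4, Usp39-HKO replicate 2, Usp39-HKO replicate 3 or Usp39-HKO replicate 4 (adjusted p = 0.0789, 0.113, 0.136, 0.0974, 0.0606 and 0.136) and without the filter (0.0723), and the range over all alternatives was 0.0115 to 0.136.

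The members called lower with TMM, and not without it, had mean levels over the 8 mice of 9.99 FPKM for Usp47, 12.6 for Usp24 and 11.8 for Usp9x. Usp47, which acts on DNA polymerase beta in base excision repair, gave the smallest adjusted p of the family. Usp47 measured 178, 150.11, 153 and 158 TMM-scaled CPM in control replicates 1 to 4, against 118, 137, 106 and 114 in Usp39-HKO replicates 1 to 4. The groups did not overlap, with Usp39-HKO replicate 2 closest to the controls. Usp47 (chr7:112023504-112111661) fell (log2 fold change -0.43 ± 0.11 SE, edgeR adjusted p = 0.0166) when scaled by TMM, while its unscaled level was 10.7 ± 0.801 FPKM in control and 9.33 ± 1.15 FPKM in Usp39-HKO livers (SD, n = 4 each) and overlapped between the groups (exact permutation p = 0.114). Leaving out control replicate 1 ended the call (adjusted p = 0.0532, range over all alternatives 0.00313 to 0.232).

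Usp24, with 68 exons annotated in 1 transcript, was likewise highest in control replicate 1 and lowest in Usp39-HKO replicate 3. In TMM-scaled CPM, Usp24 stood at 209, 159, 182 and 177 in control replicates 1 to 4 and at 129, 149.97, 117 and 139 in Usp39-HKO replicates 1 to 4. The groups did not overlap, but control replicate 2 and Usp39-HKO replicate 2 lay close together. Usp24 (chr4:106316213-106441322) fell with TMM (log2 fold change -0.44 ± 0.12 SE, edgeR adjusted p = 0.0199), with 13.5 ± 1.44 FPKM in control and 11.7 ± 1.71 FPKM in Usp39-HKO livers (SD, n = 4 each). The call was lost without control replicate 1, control replicate 3 or Usp39-HKO replicate 3 (adjusted p = 0.0623, 0.0555 and 0.0575) and among genes with a mean FPKM of at least 5 (0.0534, range over all alternatives 0.00465 to 0.262).

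Usp9x, an X-linked protease that stabilises many signalling and survival proteins, was the only one of the 6 called members whose groups overlapped on the scale tested. Usp9x measured 248, 162, 216 and 207 TMM-scaled CPM in control replicates 1 to 4, against 145, 172, 133 and 156 in Usp39-HKO replicates 1 to 4. Control replicate 2 was below Usp39-HKO replicate 2, while the other control mice were above every Usp39-HKO mouse. Usp9x (chrX:13071498-13173328) fell with TMM (log2 fold change -0.46 ± 0.14 SE, edgeR adjusted p = 0.0331), with 12.7 ± 2.10 FPKM in control and 10.9 ± 1.59 FPKM in Usp39-HKO livers (SD, n = 4 each). Without control replicate 1, control replicate 3, control replicate 4, Usp39-HKO replicate 1, Usp39-HKO replicate 3 or Usp39-HKO replicate 4 it was not called (adjusted p = 0.0995, 0.0877, 0.0741, 0.0635, 0.0884 and 0.0618), nor among genes with a mean FPKM of at least 5 (0.0799, range over all alternatives 0.00970 to 0.308). Its transcripts share stretches of 150 bases or more, at 97% identity or more, with 3 other annotated genes, so part of its count is uncertain; 14 of the 40 tested members share such stretches with another gene.

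**Figure D3:**
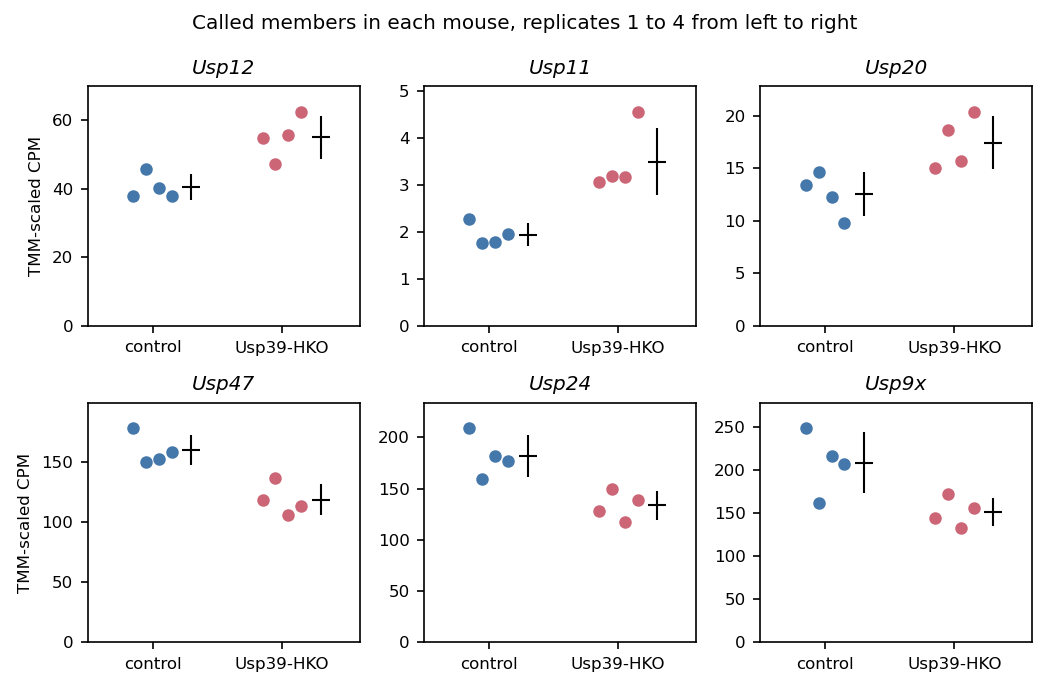
TMM-scaled CPM of the 6 called members in each mouse, replicates 1 to 4 from left to right, with the group mean and SD (n = 4) as a black bar; every axis starts at 0. Usp12, Usp11 and Usp20 are higher in all 4 Usp39-HKO mice, and Usp47 and Usp24 lower, while Usp9x overlaps; without TMM the 3 lower genes were not called.

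The direction of these calls was read against the scaling. With RLE size factors and with DESeq2, the same 6 members were called in the same directions. With library size alone, 7 members were called higher and 0 lower, where 3525 and 696 of all 14340 genes were. With limma on log2(FPKM + 1) 5 were higher and 0 lower, where 3031 and 637 of all genes were. Usp11, Usp12 and Usp20 were among the higher ones both times, and at an unadjusted p under 0.05 these fits had 11 and 8 members, where the background was 41.6% and 40.5% of genes. The folds of Usp9x, Usp24 and Usp47 kept their sign without TMM, at -0.22, -0.20 and -0.19, with adjusted p = 0.277, 0.262 and 0.232, values inside the ranges given above. TMM factors ran from 0.911 to 0.940 in control mice and from 1.01 to 1.19 in Usp39-HKO mice, the highest in Usp39-HKO replicate 4. In TMM-scaled CPM the groups did not overlap for 6 members, 3 higher and 3 lower (Usp19, Usp24 and Usp47), where the background was 24.8% of genes. In unscaled FPKM they did not overlap for 9 members that were higher (background 23.9%) and for 0 that were lower (background 4.81%). Usp11 is 1 of the higher members in both counts and had to differ by the filter, which leaves 2 and 8.

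**Figure D4:**
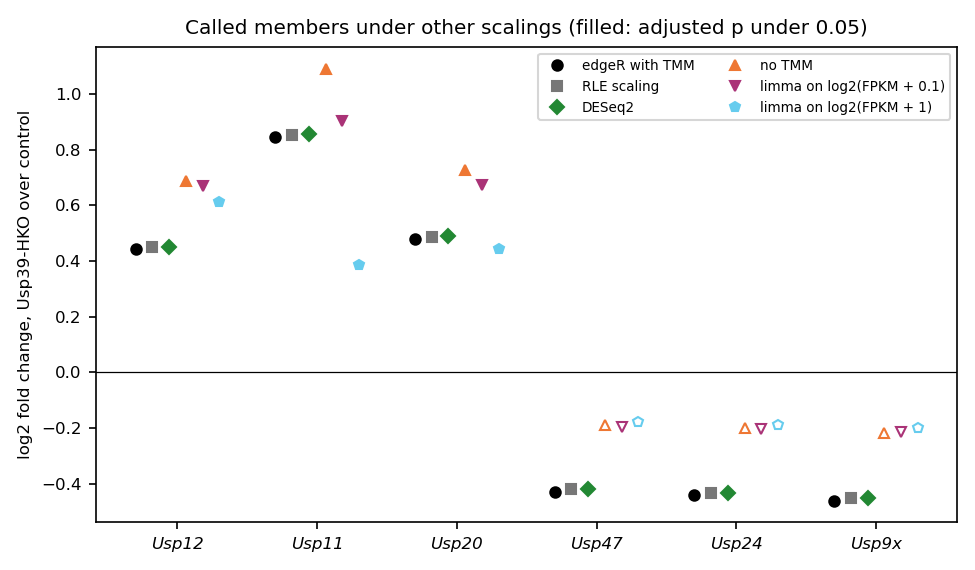
Log2 fold change of the 6 called members under edgeR with TMM, RLE or no scaling beyond library size, under DESeq2, and under limma on log2(FPKM + 0.1) and log2(FPKM + 1); filled symbols have an adjusted p under 0.05. The 3 higher members are filled under all of these, and the 3 lower members are open with library size alone and under limma, where FPKM is not TMM-scaled.

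Mice of the same genotype also differed from each other. The median log2 ratio of the 40 members to their control mean, in TMM-scaled CPM, was -0.01, -0.06, -0.21 and 0.01 in Usp39-HKO replicates 1 to 4, against a range of -0.09 to 0.09 over the control mice. Usp39-HKO replicate 3 had the lowest value of its group in 17 of 40 members and the highest in 1. Among control mice, replicate 1 was highest in 20 members and replicate 2 lowest in 22. The mean log2 ratio of Usp9x, Usp24 and Usp47, which were picked because they fell, was -0.49, -0.26, -0.62 and -0.43 in the Usp39-HKO mice, lowest in replicate 3 and nearest to 0 in replicate 2. As the summed FPKM of all 49 members, the family came to 259 ± 11.0 in control and 283 ± 28.2 in Usp39-HKO livers (SD, n = 4 each, not TMM-scaled).

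**Figure D5:**
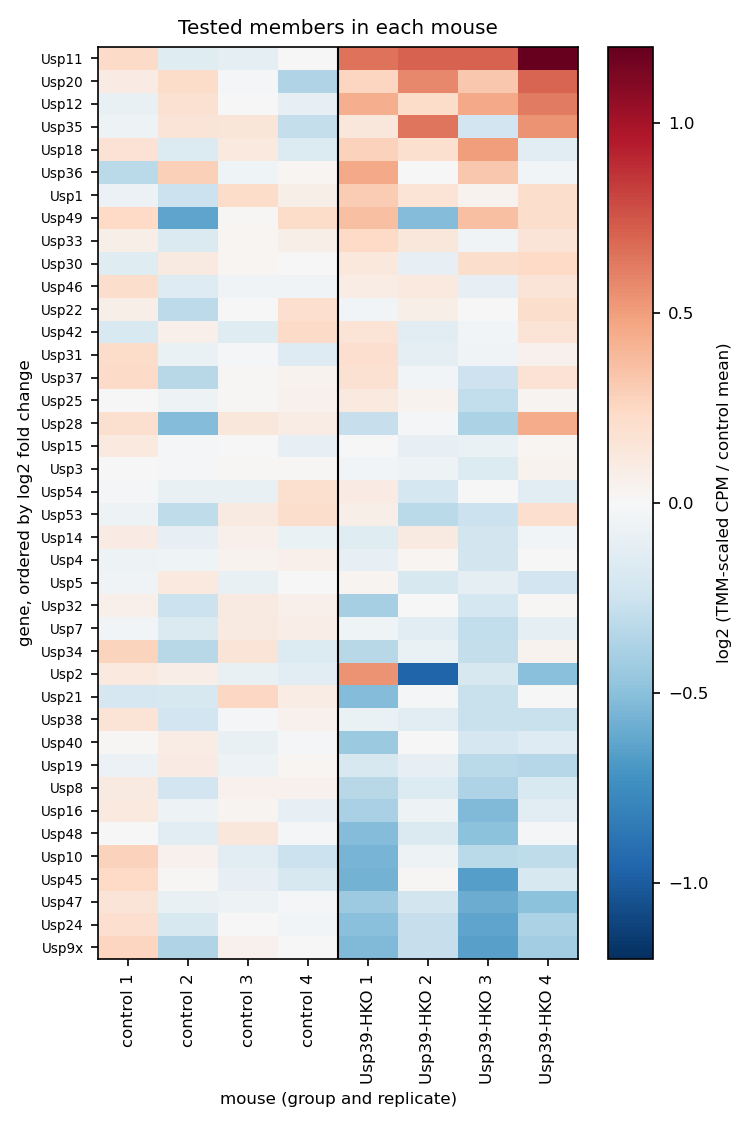
Log2 ratio of TMM-scaled CPM in each mouse to the control mean, for the 40 tested members ordered by log2 fold change, with control replicates 1 to 4 at the left and Usp39-HKO replicates 1 to 4 at the right. Red is above and blue below the control mean, and without TMM most members would lie above it; Usp39-HKO replicate 3 has the lowest median, -0.21, and Usp2 differs in sign between mice of the Usp39-HKO group.

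The 5 members with the highest mean FPKM were Usp8, Usp5, Usp19, Usp7 and Usp25, and none was called with all 8 mice, while Usp8 was called lower without control replicate 2. Usp8, which sorts receptors at endosomes, stood at 21.7, 17.4, 20.9 and 21.6 FPKM in control replicates 1 to 4 and 17.8, 21.5, 18.1 and 23.1 FPKM in Usp39-HKO replicates 1 to 4. Usp5, which takes apart free ubiquitin chains, was at 16.2, 18.3, 15.7 and 17.3 FPKM in the control mice and 18.9, 17.4, 18.0 and 18.5 FPKM in the Usp39-HKO mice. Both genes overlapped between the groups, with log2 fold changes of -0.26 and -0.12 (adjusted p = 0.0926 and 0.390). Usp19, a protease with an ER-anchored form, had 14.8, 16.9, 14.98 and 16.4 FPKM in control and 15.2, 17.4, 14.5 and 16.0 FPKM in Usp39-HKO mice. Usp7, which acts on Mdm2 and p53, had 13.2, 12.1, 14.5 and 14.7 FPKM against 14.4, 14.6, 12.8 and 16.2 FPKM. Usp25, which acts in ER-associated degradation, had 12.6, 12.3, 12.7 and 13.4 FPKM against 15.2, 15.5, 11.99 and 16.8 FPKM. Usp39-HKO replicate 4 had the highest FPKM of its group in Usp8, Usp7 and Usp25, and the groups overlapped in FPKM for all 5. The log2 fold changes were -0.24 for Usp19, -0.15 for Usp7 and -0.02 for Usp25 (edgeR adjusted p = 0.1002, 0.318 and 0.936). All 5 folds are with TMM, while the FPKM are not TMM-scaled. In mean FPKM Usp5, Usp7 and Usp25 were higher in Usp39-HKO livers, and Usp8 and Usp19 slightly lower.

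By role, the nuclear members form the largest group, with 14 of 17 tested, 1 higher (Usp11, which the filter decided), 1 lower with TMM (Usp47) and 12 not called, where the background was 22.5%, and a median log2 fold change of -0.04. The higher count was 0 without control replicate 3 or 4 or Usp39-HKO replicate 4 and without the filter, and the lower count 0 without control replicate 1, without TMM and under limma. The 12 ranged from -0.32 to 0.20. Proteases of ubiquitinated histones in this group had log2 fold changes of 0.07 for Usp22, the protease of the SAGA complex, -0.05 for Usp3, -0.27 for Usp16, -0.18 for Usp21 and 0.14 for Usp49. Usp1, which acts with Wdr48 on Fancd2 and PCNA, had 0.18, and was called only without TMM and under limma. The nucleolar Usp36 had 0.20, and was called only without TMM. Usp45, which acts on the repair nuclease subunit Ercc1, had -0.32, the lowest of the 34 members not called. Usp48, Usp28 and Usp42 had -0.28, -0.02 and 0.05. Of the exon bases of Usp49, 51.2% are shared with another gene on its strand, so its count is uncertain.

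All 12 members of the signalling group were tested, with 1 higher (Usp12), 2 lower with TMM (Usp9x and Usp24) and 9 not called, so 3 of 12 where the background was 22.5%, and a median of -0.11. Its called members numbered 0 without control replicate 1 or 3, 1 without control replicate 4 or Usp39-HKO replicate 3 or 4, and 2 without Usp39-HKO replicate 1. Usp15, which acts on TGF-beta receptors and SMADs, had -0.04 and its relative Usp4 -0.07. Usp34, which acts on Axin in the Wnt pathway, had -0.15, and Usp10, a partner of the stress granule protein G3bp1, -0.30. Usp46, Usp31 and Usp38 had 0.07, 0.03 and -0.19. Usp18 removes the ubiquitin-like protein ISG15 and restrains interferon receptor signalling, and its FPKM was 5.78, 4.63, 5.55 and 4.71 in control and 6.86, 6.96, 8.45 and 6.05 in Usp39-HKO mice. Its groups did not overlap in FPKM but did in TMM-scaled CPM, and the log2 fold change of 0.23 was not called (adjusted p = 0.320), though it was without TMM and under limma. Usp2, whose transcript follows the circadian clock in liver, was at 3.01, 2.95, 2.61 and 2.61 FPKM in control and 4.46, 1.69, 2.83 and 2.54 FPKM in Usp39-HKO mice. The control mice were close together and the Usp39-HKO mice far apart, with replicate 1 above and replicate 2 below all other mice, and the log2 fold change of -0.18 was not called (adjusted p = 0.671). Usp18 and Usp2 are given in every mouse beside their pathway lists and were chosen for that after their values were seen.

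In the endosome, ER and mitochondria group all 7 members were tested, with 1 higher (Usp20), 0 lower and 6 not called, where the background was 22.5%, and a median of -0.02. Its called members numbered 0 without control replicate 1, 3 or 4, without Usp39-HKO replicate 2, 3 or 4 and without the filter. Usp30, which sits on the mitochondrial outer membrane and opposes mitophagy, had a log2 fold change of 0.12, Usp33 had 0.12 and Usp32 -0.14. Usp33 was called higher only without TMM and under limma on log2(FPKM + 0.1). Usp14, the protease bound to the proteasome, had -0.07 in the group of ubiquitin recycling and proteasome members. In that group 2 of 3 were tested and 0 called, where the background was 22.5%. Usp37, which acts on cyclin A, had 0.03 and was the 1 member tested of 4 in the cell cycle and germline group. Of 6 other members, 4 were tested and 0 called, where the background was 22.5%. They ran from -0.19 for Usp40 to 0.32 for Usp35, with Usp53 at -0.06 and Usp54 at -0.05. Exons of another gene on the opposite strand cover 26.0% of the exon bases of Usp14, 24.4% of Usp33 and 20.5% of Usp38, and the strand setting of the counting is not given in the sources used here, so reads of these pairs cannot be told apart.

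The 9 members not tested failed the filter of 0.5 FPKM in 4 or more mice, with 0 to 58 counts per group. Usp26 and Usp9y, the latter on the Y chromosome, had 0 counts in all 8 mice, for which the depth allows up to 3 counts per mouse, or at most 0.349 CPM. Usp44 had 1 count and Usp29 had 9, all of them in Usp39-HKO mice. Usp13, the relative of Usp5, had 4 counts in control and 7 in Usp39-HKO mice, while Usp5 was among the most abundant members, and Usp51 had 1 and 3 (ratio of the count rates 2.94, exact 95% interval 0.236 to 154). Usp27x and Usp50 summed to 39 and 26 counts in control and to 58 and 41 in Usp39-HKO mice. Usp43 stood apart among the untested members. It had 1, 1, 1 and 1 counts in control replicates 1 to 4 and 3, 19, 5 and 21 counts in Usp39-HKO replicates 1 to 4. Every Usp39-HKO mouse was above every control mouse, with replicates 2 and 4 well above replicates 1 and 3. The ratio of its count rates was 11.7 (exact 95% interval 4.30 to 44.8, counting error only), and with no filter Usp43 was called (edgeR adjusted p = 0.00203). Usp43 was singled out after its values were seen, and exons of another gene on the opposite strand cover 12.8% of its exon bases.

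Ratios of FPKM between relatives within a mouse do not depend on the scaling, and 9 pairs were computed, chosen after values were seen and so without a test. The ratio of Usp11 to Usp4 was 0.0368, 0.0283, 0.0270 and 0.0290 in control replicates 1 to 4 and 0.0507, 0.0486, 0.0572 and 0.0703 in Usp39-HKO replicates 1 to 4. The filter let Usp11 in only through its Usp39-HKO values, so a higher ratio in those mice is no separate finding, and the mean ratio was 1.87 times that of the controls. For Usp12 to Usp46 the ratio was 2.79, 4.36, 3.53 and 3.32 in control and 4.38, 3.72, 5.08 and 4.77 in Usp39-HKO mice, which overlapped: control replicate 2 lay above Usp39-HKO replicate 2. The ratio of Usp20 to Usp33 was 0.336, 0.434, 0.318 and 0.244 in control and 0.334, 0.446, 0.423 and 0.482 in Usp39-HKO mice, and the groups again overlapped. Usp24 and Usp9x kept a nearly fixed ratio, 1.07 ± 0.0835 in control and 1.08 ± 0.0113 in Usp39-HKO livers (SD, n = 4 each). A ratio shows that members changed unequally and not that one of them did not change.

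Members of the family are long genes with many exons. In the GENCODE vM21 annotation of mm10, the median number of exons, counted in the transcript with the most, was 19.5 over the 40 tested members and 7 over 14329 tested genes with an entry. The log2 fold change with TMM was lower in members with more exons, and its sign in the longer classes flipped without TMM: the median was 0.07 for 13 members with 6 to 15 exons, -0.04 for 17 with 16 to 25 and -0.21 for 10 with over 25. All 3 members called lower were among those 10, and the 3 called higher were among the others. Usp11 is 1 of the 3 higher members and had to differ by the filter. That leaves Usp12 and Usp20, with 9 and 25 exons, and Usp11 also enters the medians and the correlations below. Over all tested genes the medians in the same classes were 0.01, -0.04 and -0.14, and of 852 genes with over 25 exons 205 were called lower and 79 higher. Of 6148 genes with 6 to 15 exons 799 were called lower and 778 higher. For 1883 genes with 16 to 25 exons these numbers were 302 and 197. Across genes, Spearman's rho of exon number and log2 fold change was -0.44 over the 40 members and -0.08 over the 14329 genes, as a description of genes that share the same 8 libraries. Mean FPKM had a rho of -0.46 over the members and -0.22 over all, so folds were also lower in the more abundant members. Without TMM the 3 medians of the members were 0.31, 0.20 and 0.03, above 0 but in the same order, and rho with exon number was -0.44.

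Promoter sequences are shown to set the members that rose beside those that fell with TMM. RefSeq entries on GRCm38.p6 were matched for 38 of the 49 members, 31 of them tested, and for 5 of the 6 called members. Each line gives the 150 bases upstream of the RefSeq start, or of the GENCODE start where that lies farther upstream, from 5′ to 3′ on the strand of the gene. The windows are chr5:146795007-146795156 (minus strand) for Usp12, chrX:20703756-20703905 (plus strand) for Usp11, chr2:30982129-30982278 (plus strand) for Usp20, chr7:112023354-112023503 (plus strand) for Usp47 and chr4:106316063-106316212 (plus strand) for Usp24. Capitals mark exact matches on either strand to a GC box, an ETS-type core, a CCAAT box, a TATA box or an E-box, spelled out after the sequences, and overlapping matches run together.
Usp12: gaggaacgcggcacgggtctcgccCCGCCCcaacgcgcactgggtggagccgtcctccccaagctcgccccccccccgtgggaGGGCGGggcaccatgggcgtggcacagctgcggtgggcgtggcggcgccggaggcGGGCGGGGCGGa
Usp11: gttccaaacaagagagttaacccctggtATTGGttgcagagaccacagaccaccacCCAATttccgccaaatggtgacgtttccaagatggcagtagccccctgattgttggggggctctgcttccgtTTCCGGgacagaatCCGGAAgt
Usp20: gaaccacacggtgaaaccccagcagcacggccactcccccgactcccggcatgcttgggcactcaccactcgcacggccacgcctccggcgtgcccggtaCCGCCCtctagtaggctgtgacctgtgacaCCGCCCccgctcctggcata
Usp47: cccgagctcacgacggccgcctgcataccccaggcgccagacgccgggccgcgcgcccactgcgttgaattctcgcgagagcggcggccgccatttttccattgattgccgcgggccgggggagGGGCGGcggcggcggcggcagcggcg
Usp24: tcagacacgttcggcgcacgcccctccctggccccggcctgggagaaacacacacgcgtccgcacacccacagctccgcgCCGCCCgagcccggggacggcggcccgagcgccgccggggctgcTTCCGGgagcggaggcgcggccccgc

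The GC box, spelled GGGCGG, occurred in 4 of these 5 windows, Usp11 being the exception, and 4 copies lay in the window of Usp12. It was found in 22 of the 31 tested members with an entry (71.0%) and in 28.6% of all 32851 promoter windows of 150 bases. The ETS-type core, spelled CCGGAA, was in the windows of Usp11, which had 2, and of Usp24, which had 1, and in 9 of the 31 members against 9.23% of all windows. Usp11 alone among the 5 held a CCAAT box, 2 copies of these letters, which was in 3 of 31 members and 24.5% of all windows. The TATA box, searched as TATAAA, and the E-box, searched as CACGTG, were in 0 of the 5 windows, in 1 and 3 of the 31 members, and in 7.57% and 4.30% of all windows. The median number of CG dinucleotides was 14 in the members' windows and 4 in all, and Usp11 had 5 where the others had 13 to 26. The windows of all promoters belong to 27025 genes, not only to those tested here, while the 31 members passed the filter on FPKM. These shares and medians therefore do not separate the family from other genes expressed in liver. A match describes these letters and is not a measured site.

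Genes of the other deubiquitinase families were read in the same fit. Of 37 tested genes in the UCH, OTU, Josephin, JAMM and MINDY lists, 3 were called higher and 2 lower, where the background was 22.5% in both directions together, with a median log2 fold change of -0.08. The higher calls numbered 1 without control replicate 1, 3 or 4, and the lower calls 4 without control replicate 2. In the OTU list 2 of 13 were higher: Otud1 (2.39 ± 0.397 to 5.91 ± 1.71 FPKM, control to Usp39-HKO; log2 fold change 1.06 ± 0.21 SE, edgeR adjusted p = 0.00500) and Otud7b (4.99 ± 1.34 to 8.49 ± 0.791 FPKM; log2 fold change 0.53 ± 0.16 SE, edgeR adjusted p = 0.0372). In the JAMM list 1 of 12 was higher, Stambpl1, an endosomal enzyme (log2 fold change 1.03 ± 0.32 SE, edgeR adjusted p = 0.0369), and 1 lower, Mpnd (21.1 ± 3.497 to 14.5 ± 2.61 FPKM, log2 fold change -0.76 ± 0.17 SE, edgeR adjusted p = 0.00854). No control mouse reached 0.5 FPKM for Stambpl1, so like Usp11 it entered the test only through its Usp39-HKO values and had to differ, and it is 1 of the 3 higher calls. Mindy1, which trims long chains, was the 1 of 5 MINDY and ZUP1 genes called, and it fell (25.3 ± 1.18 to 20.1 ± 1.74 FPKM; log2 fold change -0.56 ± 0.10 SE, edgeR adjusted p = 0.00403). With TMM edgeR called 0 of 4 UCH and 0 of 3 Josephin genes, where the background was 22.5%. At an unadjusted p under 0.05 there were 0, where the background was 35.3%, and 1 UCH gene was called higher without TMM and under limma. Among genes with the fold of the family but another name, 3 of 8 were tested: Uspl1, a SUMO protease, rose (2.71 ± 0.360 to 4.58 ± 0.297 FPKM; log2 fold change 0.52 ± 0.11 SE, edgeR adjusted p = 0.00867), while Cyld, which cuts ubiquitin chains of NF-kB signalling, fell with TMM and was not called without it (3.07 ± 0.382 to 2.64 ± 0.222 FPKM; log2 fold change -0.45 ± 0.11 SE, edgeR adjusted p = 0.0156). The higher calls in the other families numbered 7 without TMM. In each called gene named here 4 of 4 Usp39-HKO mice lay on the side of the fold, which for Stambpl1 the filter decided. As these genes were called from the same values, that adds no support of its own. The calls of Otud1, Mpnd, Mindy1 and Uspl1 were kept under every alternative run. Otud7b was lost without control replicate 1, 3 or 4 or Usp39-HKO replicate 2 or 3 (adjusted p = 0.00442 to 0.109 over all alternatives), and Cyld without control replicate 3, without TMM and under limma (adjusted p = 0.00493 to 0.272 over all alternatives). Stambpl1 was lost without any 1 control mouse, without Usp39-HKO replicate 1 or 4 and under limma (adjusted p = 0.0150 to 0.114 over all alternatives).

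With TMM edgeR called 0 of the 12 tested cofactors, where the background was 22.5%, and their median log2 fold change was -0.08. At an unadjusted p under 0.05 there were 0, where the background was 35.3%. Wdr48, the activator of Usp1, Usp12 and Usp46, had -0.00, Atxn7l3 and Eny2, the partners of Usp22 in SAGA, -0.01 and -0.17, and G3bp1, the partner of Usp10, 0.14; these cofactors were picked after their values were seen. In the cofactor list 1 gene was called higher without TMM and under limma, and 1 lower without control replicate 2. Of 7 ubiquitin and E1 enzyme genes, 1 was called, where the background was 22.5%. This was Rps27a, which encodes ubiquitin fused to a ribosomal protein (35.9 ± 7.03 to 79.0 ± 27.9 FPKM, log2 fold change 0.89 ± 0.23 SE, edgeR adjusted p = 0.0186). Its call was lost without control replicate 1 or 3 (adjusted p = 0.000823 to 0.0622 over all alternatives). In that list 4 of 7 had an unadjusted p under 0.05, where the background was 35.3%. The lower calls of the list numbered 0 in the fit of all 8 mice by edgeR with TMM and the filter, 1 under DESeq2 and without the filter, and 2 without Usp39-HKO replicate 2. Beside Usp18, 3 of 14 ISG15 pathway and interferon-induced genes were higher and 1 lower (28.6% called, where the background was 22.5%), led by Ifit2 (1.95 ± 0.0441 to 3.72 ± 0.834 FPKM; log2 fold change 0.69 ± 0.15 SE, edgeR adjusted p = 0.00893) and Bst2 (log2 fold change 0.63 ± 0.19 SE, edgeR adjusted p = 0.0364), with Stat2 lower (log2 fold change -0.43 ± 0.10 SE, edgeR adjusted p = 0.0138) and a median of -0.16. The higher count was 1 without control replicate 1, 3 or 4 or Usp39-HKO replicate 2 or 3, and the lower count 5 without control replicate 2, 3 under DESeq2 and without the filter, and 0 without TMM and under limma. The call of Ifit2 was kept under every alternative, that of Stat2 was lost without TMM and under limma (adjusted p = 0.00384 to 0.157 over all alternatives), and that of Bst2 without control replicate 1, 3 or 4 or Usp39-HKO replicate 2 or 3 (adjusted p = 0.00548 to 0.109 over all alternatives). Beside Usp2, 3 of 16 clock genes were higher and 1 lower (4 called, where the background was 22.5%), led by Nr1d1 (7.26 ± 2.36 to 31.0 ± 10.4 FPKM; log2 fold change 1.87 ± 0.27 SE, edgeR adjusted p = 0.00122) and Nr1d2 (log2 fold change 0.55 ± 0.13 SE, edgeR adjusted p = 0.0126), with Hlf lower (log2 fold change -0.53 ± 0.17 SE, edgeR adjusted p = 0.0462). The lower count was 0 without control replicate 1, 3 or 4 or Usp39-HKO replicate 2, 3 or 4, and 2 without Usp39-HKO replicate 1. Nr1d1 and Nr1d2 were called under every alternative, while Hlf was lost without any 1 control mouse, without Usp39-HKO replicate 2, 3 or 4, without TMM, under limma and with a mean FPKM of at least 5 (adjusted p = 0.00229 to 0.175 over all alternatives). In these genes too 4 of 4 Usp39-HKO mice lay on the side of the fold, which again adds nothing to calls made from the same values. The clock output gene Dbp, picked after its values were seen, was at 0.691, 1.31, 0.739 and 1.03 FPKM in control and 11.1, 1.08, 2.17 and 2.85 FPKM in Usp39-HKO mice, and replicate 1 of the Usp39-HKO mice was the highest in both Dbp and Usp2. The time of day of sampling is not given in the sources used here.

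Whole liver mixes cell types, and in such samples fewer cells of a type and less RNA per cell cannot be told apart; Cre acts in hepatocytes, while the counts of Usp39 and of every member come from all cells. Hepatocyte markers were high in every mouse, with Alb, encoding albumin, the most abundant (8189 FPKM), and with TMM 4 of 9 were lower and 0 higher, by edgeR and by DESeq2, while without TMM 0 were called. Of all 14340 genes tested, edgeR called 1664 lower with TMM and 696 without it. The lower markers numbered 2 without Usp39-HKO replicate 2 or 4, 1 without Usp39-HKO replicate 3 or control replicate 1 or 4, and 0 without control replicate 3. The summed FPKM of the 9 markers found was 17341, 18056, 17665 and 16320 in control replicates 1 to 4 and 19424, 14661, 17479 and 14777 in Usp39-HKO replicates 1 to 4. No marker of this list was at 0.

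Markers of other cells moved with genotype, and their part in the results on the family was not tested. The counts of higher markers stand beside a background of 10.9% of all genes tested. Of 9 tested Kupffer cell and macrophage markers 7 were higher (median log2 fold change 0.72), with Cd5l the most abundant; the count was 4 without control replicate 1 or 4 or Usp39-HKO replicate 4 and 3 without control replicate 3. For these 10 markers the sum was 371, 484, 352 and 391 in control and 699, 657, 712 and 946 in Usp39-HKO mice. Of 10 stellate cell and fibroblast markers 7 were higher (median 0.85), with Dcn, encoding decorin, the most abundant. Their count was 6 without control replicate 3 or 4 or Usp39-HKO replicate 2, 3 or 4, and 9 without Usp39-HKO replicate 1. For this list the sum was 82.4, 74.8, 75.7 and 70.8 in control and 115, 218, 174 and 251 in Usp39-HKO mice. Of 7 tested cholangiocyte markers 5 were higher (median 1.76), with Spp1, encoding osteopontin, the most abundant; the count was 4 without any 1 control mouse, without Usp39-HKO replicate 2, 3 or 4 and under limma. Of the 5, Cldn4 reached 0.5 FPKM in no control mouse, entered the test only through its Usp39-HKO values and had to differ. For cholangiocyte markers the sum was 37.1, 37.8, 35.1 and 36.8 in control and 74.7, 151, 159 and 302 in Usp39-HKO mice.

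All 9 tested markers of dividing cells were higher (median 1.99), where the background was 10.9%, with Ccnb2, encoding a mitotic cyclin, the most abundant. For the 10 markers of division the sum was 6.56, 13.4, 6.09 and 8.30 in control and 48.6, 48.3, 35.1 and 71.4 in Usp39-HKO mice. All 4 tested erythroid markers were lower (median -1.65), where the background was 11.6%, with Hba-a1, a hemoglobin chain, the most abundant. For erythroid markers the sum was 214, 427, 298 and 285 in control and 74.0, 157, 186 and 94.0 in Usp39-HKO mice. Of 10 endothelial markers 2 were lower and 0 higher by edgeR, where the background was 22.5%, with Clec4g the most abundant. At an unadjusted p under 0.05 there were 4, where the background was 35.3%. DESeq2 had 1 higher and 2 lower, and the lower count was 0 without control replicate 3 and 1 without any other control mouse or without Usp39-HKO replicate 2, 3 or 4; without TMM 5 were higher. Their summed FPKM was 139, 152, 147 and 152 in control and 152, 157, 148 and 161 in Usp39-HKO mice. With TMM edgeR called 0 of 7 tested lymphocyte and neutrophil markers, where the background was 22.5%, and limma called 1. At an unadjusted p under 0.05 there were 0, where the background was 35.3%. S100a9 was the most abundant of these markers. For these the sum was 25.6, 54.5, 32.7 and 34.9 in control and 81.9, 33.7, 19.3 and 47.2 in Usp39-HKO mice. All these sums are in FPKM and not TMM-scaled. Usp39-HKO replicate 4, in which Usp11, Usp12 and Usp20 were highest, had the highest sum of all 8 mice in the Kupffer cell, stellate cell, cholangiocyte and dividing cell lists. In the cholangiocyte list Spp1 alone made up 263 of its 302 FPKM. Its endothelial sum was also the highest, at 161 against 139 to 157 in the other mice. This mouse also had the highest TMM factor, 1.19, so the endothelial rank does not hold on the TMM scale. No marker of any of these lists was at 0 in all mice.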

How the data were processed

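Livers of 8 mice were sequenced as paired reads of 150 bases from NEBNext Ultra libraries. The authors trimmed reads with Trim Galore 0.6.1, checked them with FastQC 0.11.9, aligned them to mm10 with HISAT2 and made counts per gene with featureCounts; annotation release, strand setting and treatment of reads with several matches are not given in the sources used here. The deposited FPKM were made by the authors from these counts, exon lengths and library totals. Further deposited columns hold the authors' own DESeq2 comparison and were not used. They are a mean normalized signal computed by the authors, their log2 fold change, the score of their Wald test with its standard error, and p-values that the authors gave unadjusted and adjusted.

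Of 55699 rows, 314 repeated an identifier under another symbol, and 1 row was kept for each of 55385 identifiers. The 14340 genes with an FPKM of 0.5 or more in 4 or more mice were fitted with edgeR 4.0.16 (R 4.3.3) on TMM-scaled counts by its quasi-likelihood test, two-sided, with Benjamini-Hochberg adjustment over all of them. The SE printed with an edgeR fold was worked back from the test, as the size of the fold over the square root of its F statistic. Single levels were compared by exact permutation over the 70 assignments of mice to groups. limma 3.58.1 and DESeq2 1.42.0 were run as alternatives over the same genes. The fits were tested on simulated counts in which as many genes were raised as lowered. These counts held no shift in scaling between the groups, so they do not check the choice of TMM over library size. Gene structure came from GENCODE vM21, shared sequence from BLAST+ 2.17.0. Counts of mice of a group differed by 7.02 to 36.4 in chi-square per degree of freedom, so no pair agreed within counting noise as a library entered under 2 names would. Intervals and floors cover counting error only.

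Named members are Usp39, those called and the 5 with the highest mean FPKM, given in every mouse, and the others by role; from other lists, the 2 called genes with the smallest p in each direction and the most abundant gene of a marker list were named. The members and lists were chosen with earlier results of these data known.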

Additional observations from a re-analysis of the deposited data

Results flagged for a closer look

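Of 82 groups of 4 mice examined in FPKM, for the 40 tested members and Usp39, 6 held 1 mouse far from the other 3; by chance about 1 in 20 groups would. In control replicate 2, Usp32 was low at 5.36 FPKM against 6.61 to 6.81 in the other control mice, and Usp28 was low at 1.78 FPKM against 2.76 to 2.88. In Usp39-HKO replicate 4, Usp11 was high at 1.14 FPKM against 0.652 to 0.725 in the other Usp39-HKO mice, and Usp15 was high at 4.84 FPKM against 4.04 to 4.08. In Usp39-HKO replicate 2, Usp54 was low at 0.844 FPKM against 0.959 to 0.977, and Usp49 was low at 0.446 FPKM against 0.767 to 0.811. Of these genes Usp11 alone was called between the genotypes, and it was not called without Usp39-HKO replicate 4 (edgeR adjusted p = 0.0782, range over all alternatives 0.00983 to 0.0782).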

How the results depend on the processing

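No call of a named gene changed direction under the alternatives run. With RLE scaling and with DESeq2 the same 6 members were called. Without TMM 7 members were higher and 0 lower, with limma on log2(FPKM + 1) 5 and 0, and with limma on log2(FPKM + 0.1) 6 and 0; over all genes the split was 1561 higher and 1664 lower with TMM, 3525 and 696 without it, 3031 and 637, and 3061 and 626. With a mean FPKM of at least 5, 22 members were tested and 2 called, 1 higher and 1 lower. Over all genes that fit called 1595 of 6672, 750 higher and 845 lower. By the cutoff of the study, put on the edgeR fit with TMM, 1 member was called. This was Usp11, which passed the filter only through its Usp39-HKO values and had to differ. Other deubiquitinases called higher numbered 7 without TMM and 6 and 6 with limma. The log2 fold change of Usp39 was -0.181 without TMM, -0.163 with limma on log2(FPKM + 1) and -0.178 on log2(FPKM + 0.1), not called; the cause was not tested. Leaving out each mouse in turn gave 1 to 7 members in all, 0 to 3 higher and 0 to 4 lower, 1 to 4 other deubiquitinases higher and 2 to 4 lower, and a log2 fold change of Usp39 from -0.450 to -0.354. Over all genes these fits called 1931 to 3510. Called genes of the other lists were followed through the same alternatives, a choice made after seeing the data.

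No paired analysis was possible because the labels give the mice no pairing. With 4 mice a group, calls near the threshold depend on single mice, each left-out mouse leaving 3 in its group. At these depths members with few counts, such as Usp13 and Usp51, can show only a large difference. Usp43, with 4 counts in control mice like Usp13, showed one without the filter. Counts per gene do not resolve exons or isoforms, and whole-liver samples do not resolve cell types.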
